A study of Sus scrofa with 9 samples.

Results

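The thick and thin filaments of heart muscle are described here through 8 genes: MYH7 and MYL2 of the thick filament, and TNNT2, TNNI3, TNNC1, TPM1, ACTC1 and ACTA1 of the thin filament. They were chosen by name, each through the RefSeq accession that stands for the gene in the table of nascent transcription. Each of the 8 had a single position in that table, out of 4882 positions for 3890 gene symbols, and all 8 passed the filter on low values. Nascent RNA was read by GRO-seq, in which nuclei are allowed to extend the transcripts on which polymerases are already engaged, with a labelled nucleotide that lets the new RNA be isolated. The 9 libraries came from the myocardium of 3 female farm pigs 24 hours after an embolization coil was placed in the distal left anterior descending artery (LAD). Healthy, border zone and ischemic samples were taken from each animal, giving 3 libraries per group, and the healthy samples too came from animals with the occlusion. The labels name no untreated animal, and do not say where in the heart a sample was taken. Tissue was minced and digested with collagenase and the released cells were filtered before nuclei were taken, so the values describe the cells that came through this step.

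A sarcomere shortens when myosin heads of the thick filament pull on actin of the thin filament. At rest tropomyosin, lying along the actin, covers the sites where myosin binds. Calcium bound by troponin C shifts the troponin complex and tropomyosin and uncovers those sites. In the ventricle of large mammals MYH7 encodes the main myosin heavy chain, and circulating cardiac troponins T and I, released from damaged cells, are the clinical markers of infarction.

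Healthy libraries held 2730083 to 6531658 reads. Border zone libraries held 2187977 to 7005976 reads and ischemic libraries 883656 to 2134087. Values are RPKM, reads scaled to the length of the annotated span and to the reads of the library, and the span includes introns. The heart muscle label was checked on genes outside the filaments. Of 22 listed heart muscle genes 12 had a position in the table, and their summed level was 123 to 136 RPKM in healthy libraries. It was 58.9 to 83.4 RPKM in the border zone and 22.9 to 36 RPKM in the ischemic zone. Among the 12, CKM and PPARGC1A were listed at 0 at the position used, which for both lies on an unplaced scaffold. A 0 on such a scaffold is not taken here as absent transcription. For skeletal muscle, 11 of 16 listed genes had a position, with summed levels of 0.168 to 1.73 RPKM over the 9 libraries. MYOD1, MYH4 and TNNT3 were at 0 throughout, TNNT3 at a position that also lies on an unplaced scaffold. Ischemic replicate 2 stood apart from the other ischemic libraries for the filament genes, as described below, and results are given with and without it. It was picked from the values of these same genes, so a larger fall without it is no further support.

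The 8 genes together took 0.692%, 0.448% and 0.406% of all reads in healthy replicates 1 to 3. They took 0.222%, 0.349% and 0.207% in border zone replicates 1 to 3, and 0.193%, 0.322% and 0.0899% in ischemic replicates 1 to 3. The share was thus lower in every border zone and ischemic library than in any healthy library. In each of the 2 infarct zones the library of pig 2 held the largest share. Fewer heart muscle cells in a sample and less transcription per cell cannot be told apart in such bulk libraries.

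In healthy myocardium the filament genes were among the most strongly transcribed positions of the table. By healthy mean RPKM, MYH7 ranked 4, ACTA1 9, TNNI3 14, TNNT2 18, TNNC1 20, MYL2 28, TPM1 38 and ACTC1 101 among the 2384 positions kept for testing. Along this order 6 of 7 neighbouring genes overlapped in their healthy RPKM. TPM1 and ACTC1 were the pair whose ranges lay apart. MYH7 was the highest of the 8 in 6 of 9 libraries and ACTA1 in the other 3. ACTC1 was the lowest in 8 of 9, and TPM1 was the lowest in ischemic replicate 2.

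**Figure D1:**
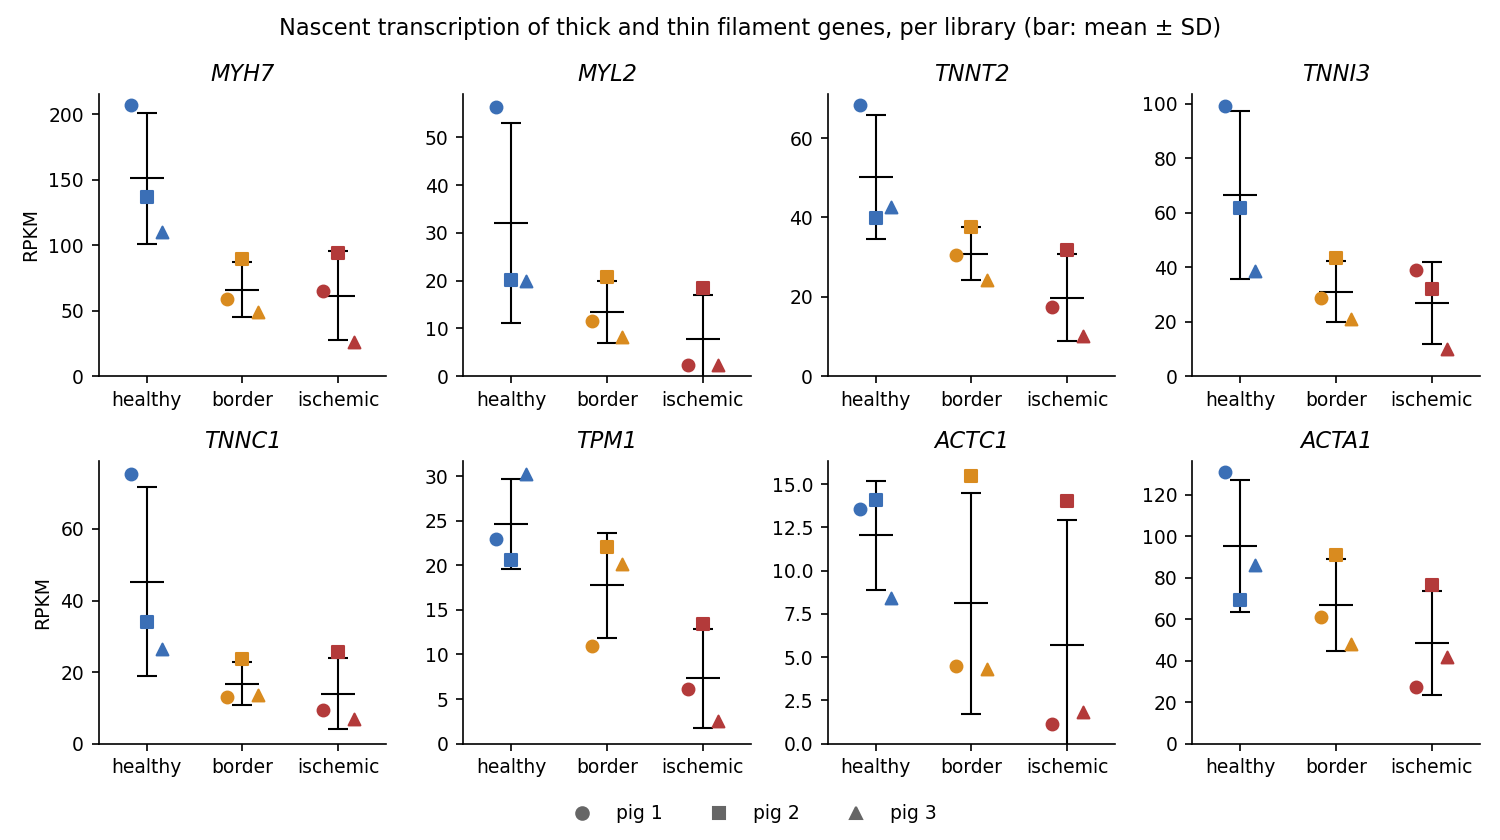
RPKM (vertical axis, from 0) of the 8 filament genes in the 9 libraries, by zone (horizontal axis), with a symbol for each pig and bars for mean ± SD (n = 3). The bars of MYL2 and ACTC1 in ischemic myocardium reach below 0 and end at the axis. Pig 2 (squares) is the highest point of the ischemic group for 7 genes, all but TNNI3, and of the border zone group for all 8.

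How transcription of the filament genes differed at the site of the infarct was read from ischemic against healthy libraries. TPM1, TNNT2, TNNC1 and MYL2 fell, at 24.7%, 36.6%, 29.5% and 16.9% of healthy. These percentages, like all fitted differences here, are on the scale of log2(RPKM + 0.1). MYH7, TNNI3, ACTC1 and ACTA1 had lower means too, and did not pass the threshold. So 4 of 8 genes were called lower and 0 higher at an adjusted p under 0.05 (limma with Benjamini-Hochberg adjustment over 2384 positions), where 9.1% of all positions tested were called lower and 18.5% higher. The median log2 fold change of the 8 genes was -1.60, against 0.21 for all positions tested. With libraries scaled to the same median, which takes the median of all positions to 0.02, 5 of the 8 genes were called lower, and 291 positions were called lower and 351 higher in place of 217 and 442.

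The count of called genes depended strongly on single libraries. It was 7 of 8, all but TNNI3, without ischemic replicate 2, where 9.29% of all positions were called lower. It was 0 without any 1 of the 3 healthy libraries or without ischemic replicate 1 or 3, where 5.28% to 7.98% of all positions were called lower. It was 1, that of TPM1, without any 1 of the border zone libraries, where 7.9% to 8.26% of all positions were. With pig as a block it was 6, adding MYH7 and TNNI3, where 10.3% of all positions were called lower. Limma-voom on the recovered reads called all 8, where 13.8% of all positions were called lower. A fit on the 6 healthy and ischemic libraries alone called 0, where 6.46% of all positions were called lower. The direction was the same in all 21 alternatives for each of the 8 genes.

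MYH7, the slow or beta heavy chain of cardiac myosin, carries the motor of the thick filament (NM_213855, susScr3 chromosome 7 from 81066283 to 81087123, minus strand, 28.5% of the span exonic). It had 207, 137 and 110 RPKM in healthy replicates 1 to 3. Border zone replicates 1 to 3 had 59.2, 89.8 and 49.3 RPKM, and ischemic replicates 1 to 3 had 64.8, 94.1 and 25.8 RPKM. All 6 infarct-zone libraries lay below the 3 healthy ones, while the border zone and ischemic values overlapped. The log2 fold change of ischemic against healthy was -1.43 ± 0.50 (± SE, limma adjusted p = 0.0647), at 37% of healthy with a 95% interval of 16.7% to 82.1%. Blocking on pig brought it past the threshold (adjusted p = 0.0303), as did the fit without ischemic replicate 2 (adjusted p = 0.0288). MYH7 passed in no other fit that left out 1 library (limma adjusted p up to 0.169). Behind these values stood 36503 reads over the healthy and 5594 over the ischemic libraries, the deepest of the 8 genes. MYH6, the fast heavy chain with a near-identical sequence, had no position in the table under its symbol and was not analysed here. The sources used here do not say how reads that match both were treated.

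MYL2 encodes the regulatory light chain of ventricular myosin, which clasps the neck of the heavy chain (NM_213791, chromosome 14 from 34177414 to 34183777, minus strand). Its healthy libraries had 56.3, 20.1 and 19.9 RPKM. Its border zone libraries had 11.6, 20.7 and 8.12 RPKM, and its ischemic libraries 2.36, 18.5 and 2.31 RPKM. Ischemic replicates 1 and 3 were far below every other library, while replicate 2 lay just under the lowest healthy value. MYL2 had the largest fitted fall of the 8 genes, at -2.57 ± 0.83 on the log2 scale (adjusted p = 0.04996), and 3.48% of all positions tested had a lower one. Without ischemic replicate 2 it was -3.54 (adjusted p = 0.00435). Ischemic replicates 1 and 3 held 32 and 13 reads on this gene, so their values carry a sizeable counting error.

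The troponin complex is represented by its 3 cardiac subunits. TNNT2, cardiac troponin T, anchors the complex to tropomyosin (NM_001257353, chromosome 10 from 28159208 to 28169362, minus strand). It had 68.3, 39.8 and 42.6 RPKM in healthy, 30.6, 37.7 and 24.2 in border zone and 17.4, 31.8 and 10.1 in ischemic libraries. Both infarct zones lay wholly below the healthy range. The ischemic libraries fell by 1.45 ± 0.43 on the log2 scale (adjusted p = 0.0393).

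TNNC1, troponin C of heart and slow muscle, binds the calcium that switches the filament on (NM_001130243, chromosome 13 from 37805313 to 37808062, minus strand). It had 75.4, 34 and 26.4 RPKM in healthy, 13.1, 23.7 and 13.5 in border zone and 9.55, 25.5 and 7 in ischemic libraries. Ischemic replicate 2, at 25.5 RPKM, came within 1 RPKM of the lowest healthy library. Ischemic replicate 3 held only 17 reads on TNNC1. The log2 fold change was -1.76 ± 0.57 (adjusted p = 0.0499).

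TNNI3, cardiac troponin I, is the subunit that holds the filament inhibited at rest (NM_001098599, chromosome 6 from 54294993 to 54298577, plus strand). It had 99.3, 61.7 and 38.5 RPKM in healthy, 28.8, 43.3 and 21 in border zone and 38.8, 32 and 10.1 in ischemic libraries. Here the groups overlapped, because ischemic replicate 1 and border zone replicate 2 exceeded healthy replicate 3. Its log2 fold change was -1.41 ± 0.57 (adjusted p = 0.102), at 37.8% of healthy with an interval of 15.2% to 93.9%, and a block on pig brought it past the threshold (adjusted p = 0.0271). In pigs 1, 2 and 3 the ischemic value was 39.2%, 52% and 26.4% of the healthy value of the same pig, with 0.1 RPKM added to both. TNNI3 was the gene with the lowest such share in pig 2 and the highest in pig 1.

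TPM1, alpha-tropomyosin, forms the strand that covers the myosin sites on actin (NM_001097483, chromosome 1 from 120217105 to 120240145, minus strand, 4.85% of the span exonic). Healthy libraries had 23, 20.6 and 30.3 RPKM, border zone libraries 11, 22.1 and 20.1, and ischemic libraries 6.12, 13.4 and 2.5 RPKM. The healthy values were the closest together of the 8 genes, with an SD of 20.4% of the mean, and all ischemic libraries lay under them. The log2 fold change was -2.02 ± 0.56 (adjusted p = 0.0314). TPM1 was the gene called lower in most alternatives, 15 of 21. Smooth muscle and other cells also transcribe this gene, so it is not particular to heart muscle cells.

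ACTC1, cardiac alpha-actin, and ACTA1, skeletal alpha-actin, build the thin filament itself; both are transcribed in heart, and ACTA1 is known as a gene that responds to load. ACTC1 (NM_001170517, chromosome 1 from 152412178 to 152420222, plus strand) had 13.6, 14.1 and 8.43 RPKM in healthy, 4.52, 15.5 and 4.32 in border zone and 1.17, 14.1 and 1.83 in ischemic libraries. In pigs 1 and 3 the ischemic value was 9.3% and 22.6% of healthy, and in pig 2 it was 99.6%. Ischemic replicates 1 and 3 held 20 and 13 reads on this gene, so their values carry a sizeable counting error. The log2 fold change of ACTC1 was -1.86 ± 0.89 (adjusted p = 0.156), with an interval from 6.66% to 114% of healthy. Without ischemic replicate 2 it was -2.92 (adjusted p = 0.0106). ACTC1 passed in no other fit that left out 1 library (limma adjusted p up to 0.37).

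ACTA1 (NM_001167795, chromosome 14 from 65236451 to 65239197, plus strand) had 131, 69.4 and 86.1 RPKM in healthy, 61.1, 91.1 and 48.1 in border zone and 27.3, 76.3 and 41.6 in ischemic libraries. Ischemic replicate 2 exceeded its own healthy library, at 110% of it, the only such case among the 8 genes in the ischemic zone. The log2 fold change was -1.06 ± 0.44 (adjusted p = 0.11), the smallest of the 8, with an interval of 23.8% to 97.1% of healthy. It was -1.45 (adjusted p = 0.035) without ischemic replicate 2. ACTA1 passed in no other fit that left out 1 library (limma adjusted p up to 0.287). The coding sequences of ACTA1 and ACTC1 are alike, and exons made up 53.7% and 51.8% of their spans, so reads of either gene could have been assigned to the other.

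Each of the 4 calls was lost when certain libraries were left out (limma, adjusted p). For TNNT2, omitting healthy replicates 1, 2 and 3 in turn gave 0.108, 0.0714 and 0.0747. Omitting border zone replicates 1, 2 and 3 gave 0.0602, 0.0538 and 0.0549, and omitting ischemic replicates 1 and 3 gave 0.0945 and 0.102. For TNNC1 the same 8 omissions gave 0.138, 0.0934, 0.0586, 0.0683, 0.0609, 0.0705, 0.129 and 0.139. For MYL2 they gave 0.142, 0.0879, 0.0833, 0.0706, 0.0631, 0.0667, 0.142 and 0.137. TPM1 missed the threshold in 5 of these, at 0.0669, 0.0693 and 0.0904 for the healthy and 0.0749 and 0.0663 for the ischemic omissions. MYL2, TNNT2, TNNC1 and TPM1 all passed without ischemic replicate 2 (0.00435, 0.0114, 0.0141 and 0.00696).

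**Figure D2:**
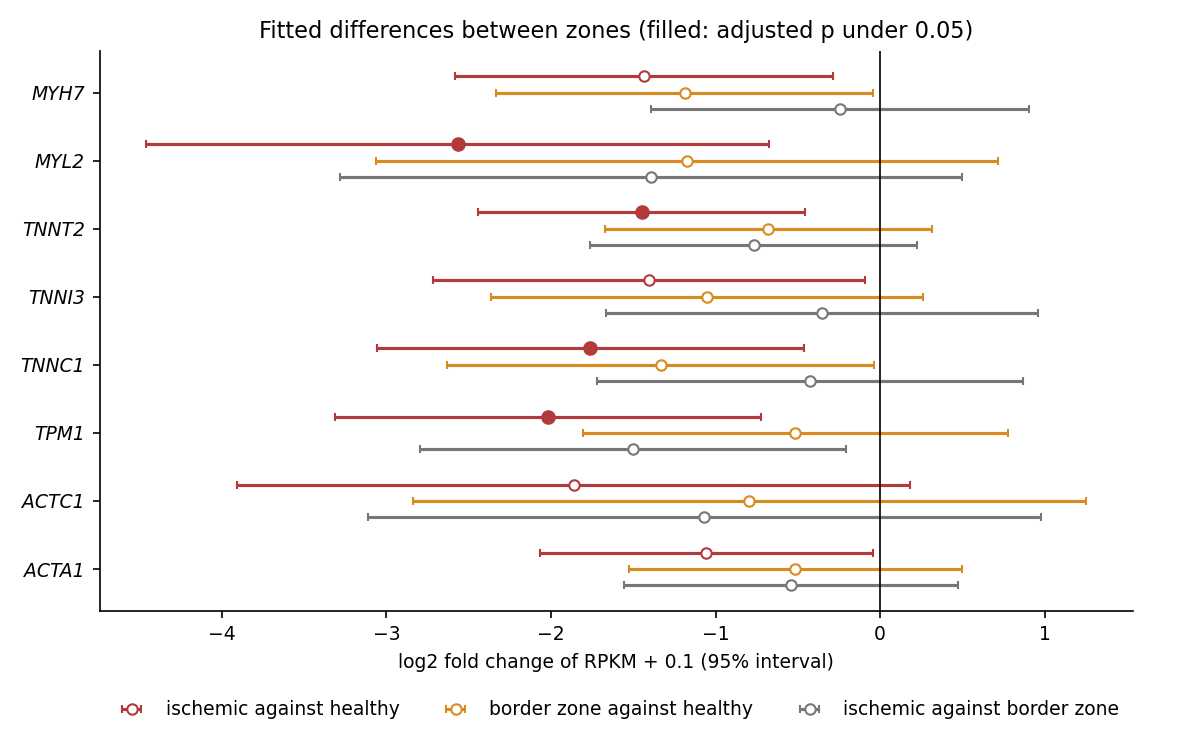
Log2 fold change of RPKM + 0.1 (horizontal axis) with 95% intervals for the 8 filament genes (vertical axis) in the 3 comparisons of zones, limma fit on 9 libraries. Filled points, those of MYL2, TNNT2, TNNC1 and TPM1 in ischemic against healthy, passed an adjusted p under 0.05; all 24 estimates lie below 0.

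The border zone comparison asks whether the muscle beside the infarct also differed from healthy muscle. None of the 8 genes passed (0 of 8 in limma, where 0.21% of all positions were called lower and 5.79% higher). At an unadjusted p under 0.05 there were 2 lower, MYH7 and TNNC1, where 3.57% of all positions were lower and 510 of 2384 passed in either direction. In limma-voom, which called 4.82% of all positions lower, 3 were called lower, MYH7, TNNI3 and TNNC1. All 8 estimates were negative, with a median log2 fold change of -0.92 against 0.22 for all positions. The estimates ran from -1.33 ± 0.57 for TNNC1 (adjusted p = 0.221), at 39.7% of healthy with an interval of 16.2% to 97.5%, to -0.51 ± 0.56 for TPM1 (adjusted p = 0.66), at 70% with an interval of 28.6% to 172%. MYH7 stood at 43.9% of healthy (interval 19.8% to 97.3%, adjusted p = 0.218). ACTA1 had -0.51 ± 0.44 (adjusted p = 0.567), and 0.02 with quantile normalization. The border zone libraries lay wholly below the healthy ones for MYH7, TNNT2 and TNNC1, 3 of 8 genes, where 6.71% of all positions did and 25.7% lay wholly above.

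Between the ischemic and border zones no filament gene passed in limma (0 of 8, where 0.965% of all positions were called lower and 0.168% higher), nor in limma-voom (2.68% lower). At an unadjusted p under 0.05, 1 of 8 was lower, a share near that of all positions, of which 9.23% were lower and 373 of 2384 passed in either direction. That gene was TPM1, whose log2 fold change was -1.50 ± 0.56 (adjusted p = 0.253). For MYH7 and TNNI3 the zones were close, at -0.24 ± 0.50 (adjusted p = 0.859) and -0.35 ± 0.57 (adjusted p = 0.814), with intervals of 38.1% to 187% and 31.5% to 195% of the border zone. Without ischemic replicate 3 these estimates were 0.29 and 0.25. Ischemic and border zone libraries overlapped for all 8 genes, where 11.5% of all positions lay wholly lower and 8.56% wholly higher in ischemic muscle. In ischemic against healthy, 5 of 8 genes did not overlap, all with the ischemic libraries lower: MYH7, MYL2, TNNT2, TNNC1 and TPM1. Of all positions 14.9% did so in that direction and 28.4% in the other. The 3 comparisons share groups and are not independent of each other.

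Set against the healthy library of the same pig, the filament genes were lower in the infarct zones of pigs 1 and 3, and differed less in pig 2. In ischemic myocardium of pig 1 the 8 genes were at 4.4% to 39.2% of their healthy value, with a median of 23.3%. In pig 3 they were at 8.6% to 48.4%, with a median of 23.8%. In pig 2 they were at 52% to 110%, with a median of 77.6%, and 7 of 8 were below their healthy value. The border zone showed the same order, with medians of 31.4% in pig 1, 53.3% in pig 3 and 98.8% in pig 2, where 4 of 8 genes were above healthy. Over all 2384 positions the median was 134%, 108% and 113% of healthy in ischemic and 117%, 116% and 111% in border zone libraries of pigs 1 to 3.

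Other genes of the heart muscle cell were also highest in pig 2 by their median, but most stood well below healthy there. In ischemic against healthy 9.1% of all positions were called lower and 18.5% higher. Of the 10 tested heart muscle genes outside the filaments, 8 fell there and 0 rose. Among them were CSRP3, a LIM protein of the Z-disc (-2.97 ± 0.25, limma adjusted p = 0.000337), ACTN2, the Z-disc actinin (-2.97 ± 0.36, adjusted p = 0.00141), and PLN, the regulator of the calcium pump (-2.87 ± 0.46, adjusted p = 0.00378). Their median level in ischemic myocardium was 11.1% of healthy in pig 1, 27.3% in pig 2 and 13.7% in pig 3. In pig 2 ACTN2 stood at 18.5%, CSRP3 at 18.1%, ATP2A2 at 24.9% and PLN at 36.4% of healthy, all under the lowest filament gene, TNNI3 at 52%. In that library FABP3, a fatty acid binding protein, was at 112% and the creatine kinase gene CKMT2 at 50%. NPPA, also on this list, had a positive log2 fold change of ischemic against healthy (0.66 ± 1.61, limma adjusted p = 0.791). It stood at 411%, 8.67% and 1110% of healthy in ischemic and 468%, 366% and 366% in border zone libraries of pigs 1 to 3. Its position held 8 reads over the healthy, 39 over the border zone and 15 over the ischemic libraries. Without ischemic replicate 2 the count of heart muscle genes called lower was 9 of 10, with 1 higher. The filament median was the higher of these medians in the ischemic library of each pig, with the widest gap in pig 2. In the border zone it was the lower in pig 1 (31.4% against 40%) and the higher in pig 2 (98.8% against 71.9%) and pig 3 (53.3% against 49%). DES, desmin, was not on the heart muscle list, though heart muscle transcribes it. In ischemic libraries of pigs 1 to 3 DES was at 49%, 96.2% and 71.6% of healthy. The difference between the filament and heart muscle lists was not tested.

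**Figure D3:**
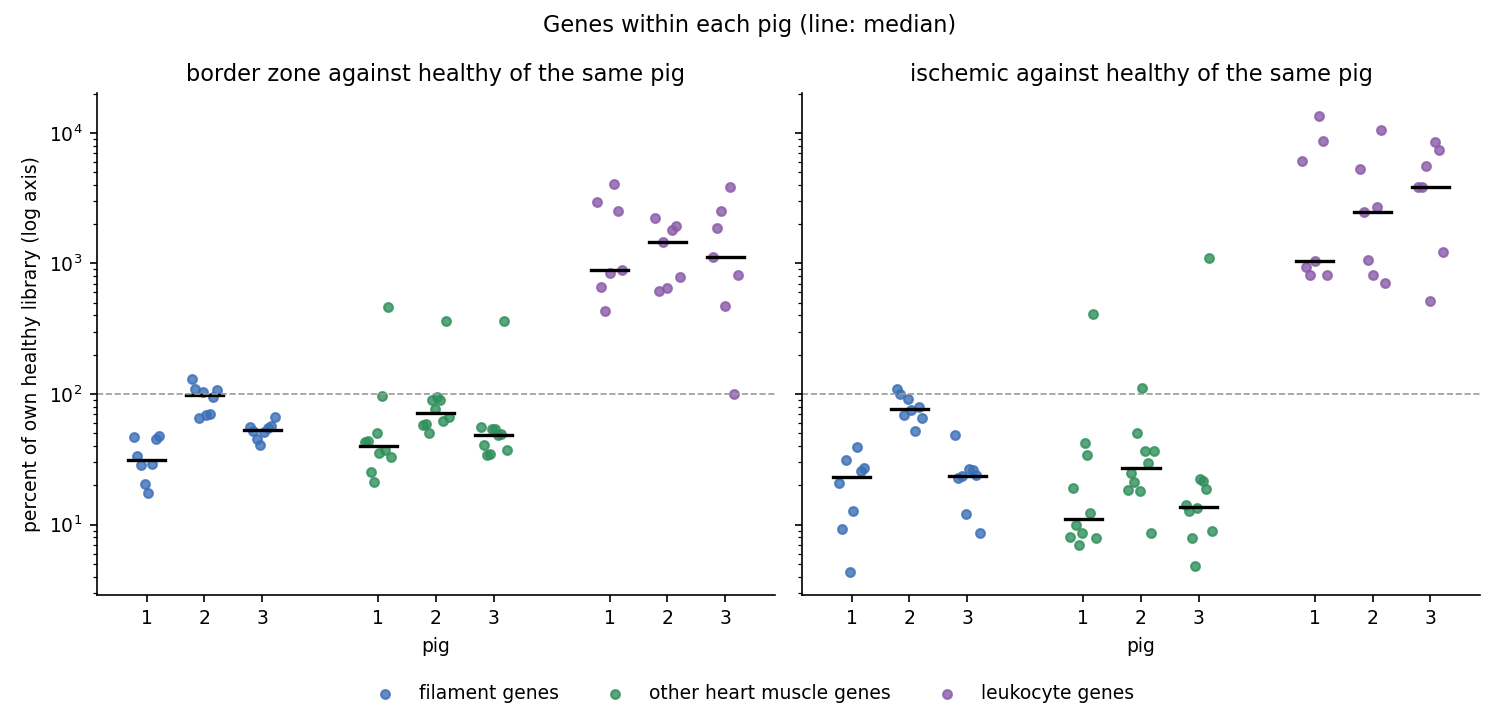
Level of each tested gene in the border zone (left) and ischemic (right) library as a percentage of the healthy library of the same pig (vertical log axis, 0.1 RPKM added to both), by pig (horizontal axis). Points are genes (8 filament, 10 other heart muscle, 7 leukocyte genes), black lines medians and the dashed line 100%. In ischemic myocardium of pig 2 the 8 filament genes have a median of 77.6%, the 10 other heart muscle genes 27.3%.

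Markers of other cell types were read beside these values. Of 12 leukocyte genes 8 had a position and CD163, on an unplaced scaffold, was at 0. Their summed level was 0.662 to 2.31 RPKM in healthy libraries. It was 13.2 to 26.6 RPKM in the border zone and 37 to 51.7 RPKM in the ischemic zone, with 37 RPKM in ischemic replicate 2. All 7 tested leukocyte genes rose in ischemic against healthy, where 18.5% of all positions were called higher. The 7 fibroblast and matrix genes with a position, of 10 listed, summed to 8.97 to 12 RPKM in healthy and 17.8 to 21.4 in ischemic libraries, and 4 of 7 rose. The 3 endothelial genes with a position, of 10 listed, summed to 4.61 to 5.67 RPKM in healthy and 8.28 to 11.7 in ischemic libraries, and 2 of 3 rose. Smooth muscle genes, 5 of 8 with a position, summed to 43.8 to 50.9 RPKM in healthy and 28.6 to 44.1 in ischemic libraries. Most of it was DES, desmin, which heart muscle also transcribes. Of the 4 tested 1 rose, near the 18.5% of all positions. The part of these cells in the lower filament values was not tested.

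Other members of the same gene families went in several directions. Of 34 further striated muscle filament genes 12 had a position and 4 passed the filter. In ischemic against healthy, where 9.1% of all positions were called lower, 1 of these 4 genes fell and 0 rose. That gene was TNNT1, troponin T of slow skeletal muscle, which lies 3223 bp downstream of TNNI3 on the same strand (chromosome 6 from 54301800 to 54314510). It had 5.85, 1.52 and 8.26 RPKM in healthy, 3.68, 4.08 and 3.56 in border zone and 0.332, 1.52 and 0.801 in ischemic libraries. Pig 2 had the same level in its healthy and ischemic libraries, and the others were far lower in ischemic muscle. The log2 fold change of TNNT1 was -2.33 ± 0.65 (adjusted p = 0.0311). This call was lost with a block on pig (adjusted p = 0.0546), without the filter on low values (0.0503), in the 2 groups alone (0.0719), without healthy replicate 1 (0.0875) or 3 (0.0941) and without ischemic replicate 1 (0.0926) or 3 (0.0682). XIRP1, an actin-binding repeat protein of the intercalated disc, had -1.13 ± 0.45 (adjusted p = 0.0954), with 20.5%, 105% and 44.8% of healthy in pigs 1 to 3. The 4 genes had a median log2 fold change of -0.79.

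The tropomyosin genes differed among themselves. TPM2, the beta-tropomyosin of striated and smooth muscle, had 43, 37.7 and 33.7 RPKM in healthy, 21, 29.4 and 21 in border zone and 40.3, 33.4 and 15.7 in ischemic libraries. Its border zone values lay wholly below healthy, its ischemic values overlapped both other groups, and its log2 fold change of ischemic against healthy was -0.46 ± 0.37 (adjusted p = 0.397). TPM4, a tropomyosin of nonmuscle cells, had 1.29, 1.81 and 1.38 RPKM in healthy, 4.35, 2.33 and 3.68 in border zone and 6.76, 3.13 and 4.05 in ischemic libraries, so that all healthy values lay lowest. It rose with 1.52 ± 0.34 (adjusted p = 0.015), and the call held in all 21 alternatives. TPM3, made in slow muscle and nonmuscle cells, rose from 2.11 ± 0.22 to 3.64 ± 0.998 RPKM (mean ± SD, n = 3 each, log2 fold change 0.73 ± 0.23, limma adjusted p = 0.0476). That call held in 5 of 21 alternatives and was lost with median scaling (0.072), quantile normalization (0.136), limma-voom (0.141) and without each library but ischemic replicate 2 (0.0665 to 0.131). Under median scaling and quantile normalization TPM1 and TPM2 stayed negative and TPM3 and TPM4 positive.

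TPM3 and TPM4 were the 2 of 6 tested nonmuscle and smooth muscle isoform genes that rose, while 0 fell. Of all positions 18.5% were called higher. The 6 isoform genes came from 22 listed genes, of which 7 had a position. MYL6, the light chain of nonmuscle and smooth muscle myosin, had 13.8 ± 1.38 RPKM in healthy and 9.45 ± 3.27 in ischemic libraries (SD, n = 3 each, log2 fold change -0.59 ± 0.29, limma adjusted p = 0.159). Of 7 tested transcription factors of muscle genes 5 fell and 0 rose, where 9.1% of all positions were called lower. Among the 5 were MYOCD, a coactivator of muscle genes (-3.40 ± 0.38, adjusted p = 0.00121), and GATA6 (-2.63 ± 0.36, adjusted p = 0.00219). Only 3 of the 7 transcription factors were called without healthy replicate 1, 2 or 3, border zone replicate 1 or ischemic replicate 1, and in the 2 groups alone.

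Ratios of filament genes within a library do not depend on how the libraries are scaled. ACTA1 was 9.64, 4.92 and 10.2 times as high as ACTC1 in healthy replicates 1 to 3, per kilobase of span. The ratio was 13.5, 5.88 and 11.1 in border zone and 23.4, 5.43 and 22.8 in ischemic replicates 1 to 3. Pig 2 had the lowest ratio in every zone, and the ischemic libraries of pigs 1 and 3 had the highest of all 9. Those highest ratios rest on 20 and 13 reads of ACTC1 and carry a sizeable counting error. MYL2 stood at 0.272, 0.147 and 0.182 of MYH7 in healthy, 0.195, 0.231 and 0.165 in border zone and 0.0364, 0.196 and 0.0894 in ischemic libraries. The ischemic libraries of pigs 1 and 3 were again the extremes, here with 32 and 13 reads of MYL2.

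Ratios were also taken between partners of the troponin complex. TNNI3 was 1.46, 1.55 and 0.904 times TNNT2 in healthy, 0.941, 1.15 and 0.869 in border zone and 2.23, 1.01 and 0.996 in ischemic libraries. TNNC1 was 1.1, 0.855 and 0.62 times TNNT2 in healthy, 0.428, 0.628 and 0.556 in border zone and 0.549, 0.803 and 0.69 in ischemic libraries. The lowest TNNC1 ratio was thus in the border zone of pig 1, and the groups overlapped for both ratios. None of 6 ratios tested passed in ischemic against healthy, and 3 against 3 libraries cannot give an exact permutation p under 0.1. The log2 differences were 0.81 for ACTA1 to ACTC1 and -1.13 for MYL2 to MYH7 (2-sided exact permutation p = 0.3 each, adjusted p = 0.6), and 0.04 for TNNI3 to TNNT2 (exact p = 1). They were -0.31 for TNNC1 to TNNT2, -0.57 for TPM1 to TNNT2 and -0.41 for ACTC1 to TNNT2 (exact p = 0.4, 0.3 and 0.7).

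**Figure D4:**
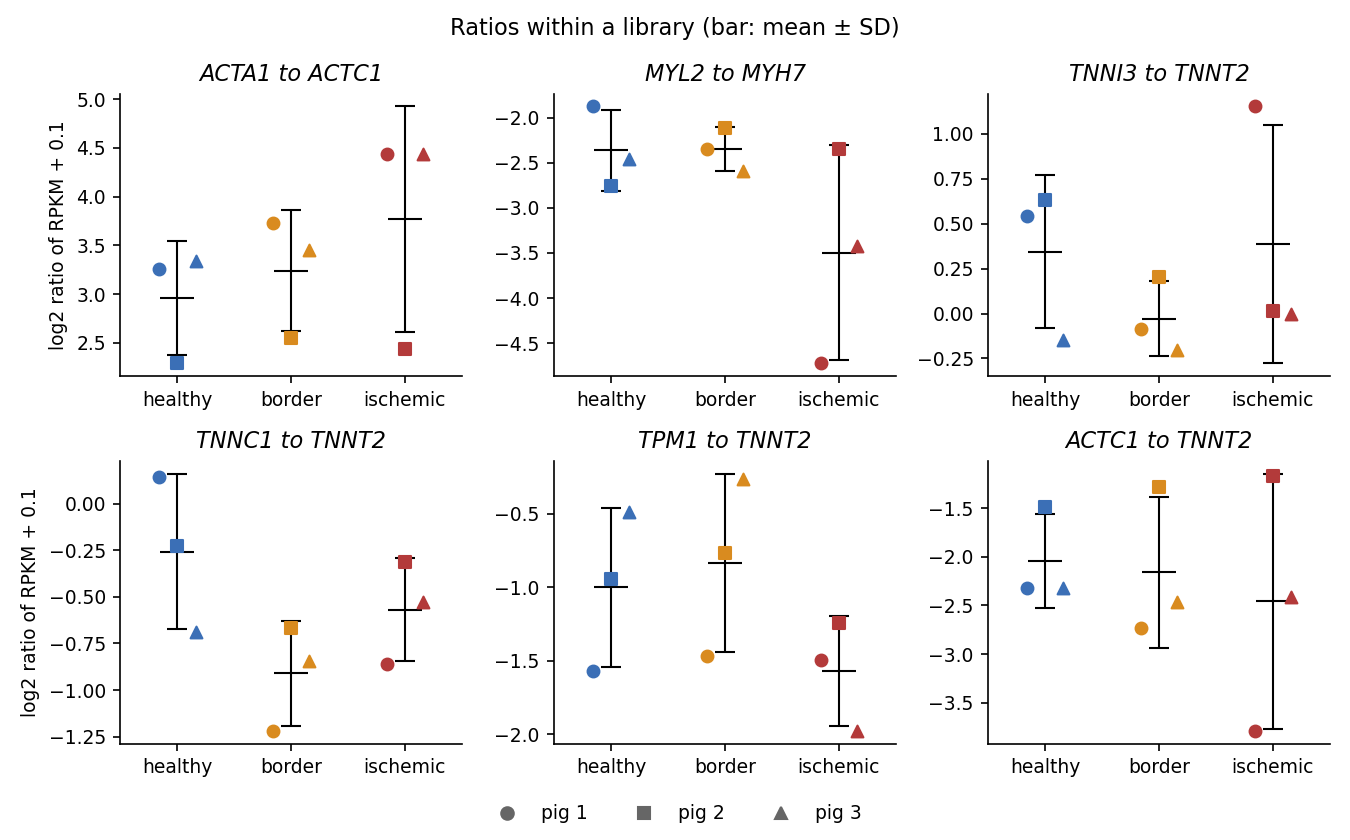
Log2 ratio of RPKM + 0.1 of 2 filament genes within a library (vertical axis), by zone (horizontal axis), with a symbol for each pig and bars for mean ± SD (n = 3). In ischemic myocardium pigs 1 and 3 lie above pig 2 for ACTA1 to ACTC1 and below it for MYL2 to MYH7.

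Within the span of MYH7, on the same strand, lies the locus of the microRNA MIR208B (NR_038551, chromosome 7 from 81071323 to 81071402). It takes 79 bp of the 20840 bp of MYH7. Reads there cannot be told apart from the MYH7 transcript, so they are not a separate measure of the microRNA. The MIR208B position held 19, 15 and 64 reads in healthy, 16, 25 and 7 in border zone and 2, 0 and 0 in ischemic replicates 1 to 3. Over the groups this was 98, 48 and 2 reads, and per library read the ischemic level was 0.0623 of healthy, with an exact 95% counting interval of 0.00744 to 0.231. Relative to the reads of MYH7 the position held 0.268% in healthy (exact 95% binomial interval 0.218% to 0.327%), 0.243% in border zone (0.179% to 0.322%) and 0.0358% in ischemic libraries (0.00433% to 0.129%). Healthy replicate 3 held 64 of the 98 healthy reads, at 0.428% against 0.161% and 0.153% in replicates 1 and 2, and without it the healthy share was 0.158% (0.109% to 0.22%). As means of the 3 libraries the shares were 0.248% ± 0.156 for healthy, 0.289% ± 0.0893 for border zone and 0.0231% ± 0.0401 for ischemic muscle (SD, n = 3 each). Healthy and border zone did not pass (2-sided exact permutation p = 0.8), and the order of these groups differs between pooled reads and means. Both ischemic reads came from replicate 1. Ischemic replicate 2 had 0 of 2237 MYH7 reads there, where up to 0.165% is allowed by the interval. Ischemic replicate 3 had 0 of 476, where up to 0.772% is allowed, more than the share of any healthy or border zone library. The 3 ischemic shares were lower than all others, with a 2-sided exact permutation p of 0.1 against healthy (adjusted p = 0.15 over 3 comparisons), the smallest that 3 against 3 allows. The intervals cover counting error only.

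Likeness across the 9 libraries was described by Pearson's r of log2 RPKM with 0.1 added, over libraries that share pigs and zones. The 3 genes most like MYH7 were TNNI3 (r = 0.96), FABP3 (0.96) and TNNC1 (0.95). Those most like MYL2 were TNNT2 (0.96), ACTA1 (0.95) and the aminotransferase gene GOT2 (0.95). Those most like TNNT2 were ACADL, an enzyme of fatty acid oxidation (0.99), DDO (0.97) and ATP5O, a subunit of ATP synthase (0.97). TPM1 was most like CYB5R1, RAMP1 and ATP5J2 (0.98 each). For ACTC1 they were PRELID3B (0.98), PGRMC1 (0.93) and MYL2 (0.93), and those most like ACTA1 included MYL2 (0.95) and PGRMC1 (0.92). For TNNI3 they were RCN2 (0.98), SLC35A4 (0.97) and MYH7 (0.96), and for TNNC1 they were the muscle enolase gene ENO3 (0.97), DCN (0.95) and MYH7 (0.95). The lowest r between 2 filament genes was 0.61, between ACTA1 and TNNI3 and between ACTC1 and TNNI3.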

How the data were processed

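The authors aligned GRO-seq reads of 9 pig heart libraries to susScr3 with Bowtie, per the submitters' processing notes. The deposited table holds RPKM over the annotated span, per the file headers, beside the span and exon lengths (bp). For the counter, strand setting, duplicate handling and multiply matching reads, nothing is given in the sources used here. RPKM times span and library total gave whole reads within 0.01 for 100% of nonzero values. Symbols came from a Sscrofa11.1 RefSeq table (4793 of 4882 positions matched), used for names only, and the longest span stood for a gene.

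Of these positions 2384 reached a mean of 0.5 RPKM; their log2(RPKM + 0.1) was fitted with limma 3.58.1 (R 4.3.3; eBayes with trend and robust, 3 groups, all 9 libraries, 2-sided, Benjamini-Hochberg over all positions, threshold 0.05). The fit was tested on simulated data. Alternatives changed the pseudocount, filter, scaling, test and libraries, added pig as a block, or used limma-voom on recovered reads with TMM factors computed from their published definition. Ratios used exact permutation tests (scipy 1.17.1).

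The pig number of each sample equals the replicate number in its title, and the samples were paired by that number. Over all positions tested, deviations from group means correlated with r of -0.04 to 0.18 within pigs and -0.16 to 0.08 between pigs. The members and lists were chosen with earlier results of these data known. Members are all named, and 1 gene of like pattern is not reported here. Of other lists, genes past the threshold and the most strongly transcribed were eligible, and a selection is given, with FABP3, chosen after its values were seen. P-values measure the spread between libraries of the same zone, from these 3 animals. The main limma fit pooled that spread over the 3 zones and treated the 9 libraries as independent, though they share pigs. Python 3.11.15, numpy 2.4.6, pandas 2.3.3 and matplotlib 3.10.9 were used for tables and plots.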

Additional observations from a re-analysis of the deposited data

How the results depend on the processing

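For ischemic against healthy, the count of filament genes called lower was 4 of 8. Shares of all positions called lower stand in brackets, 9.1% in the main fit. The count was 2 with a pseudocount of 1 (9.1%), 1 without a filter (5.78%) and 0 in a fit on the 2 groups alone (6.46%). It was 8 by limma-voom (13.8%) and 2 with eBayes without trend and robust settings (8.77%). It ran from 0 to 7 when 1 library was left out (5.28% to 9.29%). It was 6 with the replicate block of pig (10.3%), and 6 with that block and without pig 2 (5.22%), an alternative chosen after seeing the data. For border zone against healthy the count of 0 became 3 by limma-voom (4.82%). With the replicate block it stayed 0 (0.545%), as it did between ischemic and border zone (1.01%). Beyond MYH7, TNNI3 and TNNT1, the block changed no call of the 8 filament genes, TPM3 or TPM4 for ischemic against healthy. With the block 4 of 7 muscle transcription factors were called, in place of 5, HAND1 being lost. The log2 fold change of ACTA1 for border zone against healthy turned from -0.51 to 0.019 with quantile normalization. Leaving out 1 library, that of MYH7 for ischemic against border zone ranged from -0.64 to 0.29 and that of TNNI3 from -0.72 to 0.25, positive without ischemic replicate 3. The log2 difference of TNNI3 to TNNT2, 0.04, ranged from -0.34 (without ischemic replicate 1) to 0.24, and was -0.20 without healthy replicate 3. That of ACTC1 to TNNT2, -0.41, ranged from -1.06 to 0.25, the latter without ischemic replicate 1. The cause was not tested, except that leaving out libraries lowers the number of samples. Taking the position with the highest mean changed no filament gene, since each has 1 position. Depth limits the ischemic libraries most: replicate 3 held 794 reads over the 8 genes. The healthy share of MIR208B in MYH7 reads, 0.268%, ranged from 0.158% to 0.319% without 1 library, an alternative chosen after seeing the data.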
